A study of Mus musculus with 13 samples.

Results

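The glutathione and antioxidant enzyme genes were 69 of the 25965 genes in a table of RNA levels from 13 mouse testis libraries. They were chosen by gene symbol, with earlier results of these data known. They comprised 22 genes with symbols of the soluble glutathione transferases, 3 microsomal glutathione transferases (Mgst), 8 glutathione peroxidases (Gpx), 15 thioredoxin-type genes (Txn, Txndc, Txnl and Txnip), 3 thioredoxin reductases (Txnrd) and 7 peroxiredoxins (Prdx). The others were 3 superoxide dismutases (Sod), catalase (Cat), 4 genes of glutathione synthesis and reduction (Gclc, Gclm, Gss and Gsr), and Nqo1, Nfe2l2 and Keap1 of the NRF2 pathway. The libraries came from 6 Wfdc15a knockout mice (KO), 4 heterozygotes (Het) and 3 wild-type mice (WT), and the series' design text counts Het and WT mice together as the control (n = 7). All mice were adults of 15 weeks, and the tissue was the whole testis without its tunica. The strain and the knockout allele are not given in sources used here, and no treatment is named. Each library title also carries a number of unstated meaning, called the title number below. It is 1 for KO replicates 1 to 3 and Het replicate 1, and 2 for the other 9 libraries.

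Glutathione is the main small thiol of cells. Glutathione peroxidases use it to reduce hydrogen peroxide and lipid hydroperoxides, and glutathione transferases attach it to reactive compounds. Thioredoxins and peroxiredoxins form a parallel thiol system, and the reductases of both systems draw on NADPH. The testis is known for germ cell forms of several of these enzymes, among them Gpx4 and the spermatid thioredoxins, while Leydig and Sertoli cells hold the broadly expressed forms.

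The unit is RPM (reads of a gene per 1000000 reads of the library), computed back from the log2 values, and the depth was 4.51 to 11.1 M reads per library. A count of 0 reads allows up to 0.27 to 0.665 RPM, for counting error only. Wfdc15a itself had 31.5, 19.4 and 33.4 RPM in the KO libraries of title number 1 and 54.1, 48.1 and 81.3 RPM in those of number 2, against 53.5 to 85.8 RPM in the controls. Over all KO and control libraries the log2 difference was -0.66 (two-sided exact permutation p = 0.0338), and it was -0.15 (p = 0.5) within title number 2. Its level did not separate the KO libraries of number 2 from the controls, and KO below stands for the libraries labelled KO, in every direction given. The 8 markers of elongating spermatids were all lower in KO, with a summed level of 4430 to 7035 RPM in KO and 10631 to 15445 RPM in the controls. The markers of Leydig cells (8 of 8), macrophages (8 of 9) and Sertoli cells (7 of 10) were higher in KO. None of the markers of these testis cell types was at 0. Their sums were 5697 to 9819 RPM in KO and 2317 to 4257 RPM in the controls for Leydig cells, 2546 to 4073 RPM and 1410 to 2368 RPM for Sertoli cells, and 147 to 345 RPM and 85.9 to 132 RPM for macrophages, in the same order of groups. Of the spermatocyte markers 1 of 7 and of the round spermatid markers 1 of 6 passed the test, both lower. Of the markers of spermatogonia 2 of 7, of endothelium 2 of 4 and of peritubular cells 1 of 5 were higher, and none of the 2 tested red blood cell markers was called. In whole testis RNA, fewer cells of a type and less RNA per cell cannot be told apart, and the part of these shifts in the results below was not tested.

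Antioxidant genes moved in both directions in KO testes. Of the 69 genes, 66 had a mean of at least 1 RPM and were tested. A gene is called higher or lower where its limma p, adjusted by Benjamini-Hochberg over all 16235 genes tested, was under 0.05. By this rule 26 antioxidant genes (39.4%) were higher in KO, against 18.4% of all genes tested, and 9 (13.6%) were lower, against 6.18%. Their median log2 fold change of RPM + 1 was 0.29, and that of all genes was 0.16. The values of the KO and control libraries did not overlap for 10 antioxidant genes above and 5 below the controls, which holds for 5.06% and 2.89% of all genes tested. Scaling by median-of-ratios moved the median of all genes by -0.14 on the log2 scale and gave 1711 genes higher and 1716 lower over all genes, against 2994 and 1003 with RPM. Under it 23 antioxidant genes were higher and 10 lower (background 10.5% and 10.6%), and 3 calls were lost (Gpx8, Gstk1 and Gstz1). Quantile normalization gave 21 higher and 7 lower (background 8.99% and 9.44%). It lost the calls of Cat, Gpx8, Gsr, Gstk1, Gsto2, Gstz1, Nqo1, Prdx4 and Txnl1 and gained those of Prdx6 and Txnrd3, both higher.

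**Figure D1:**
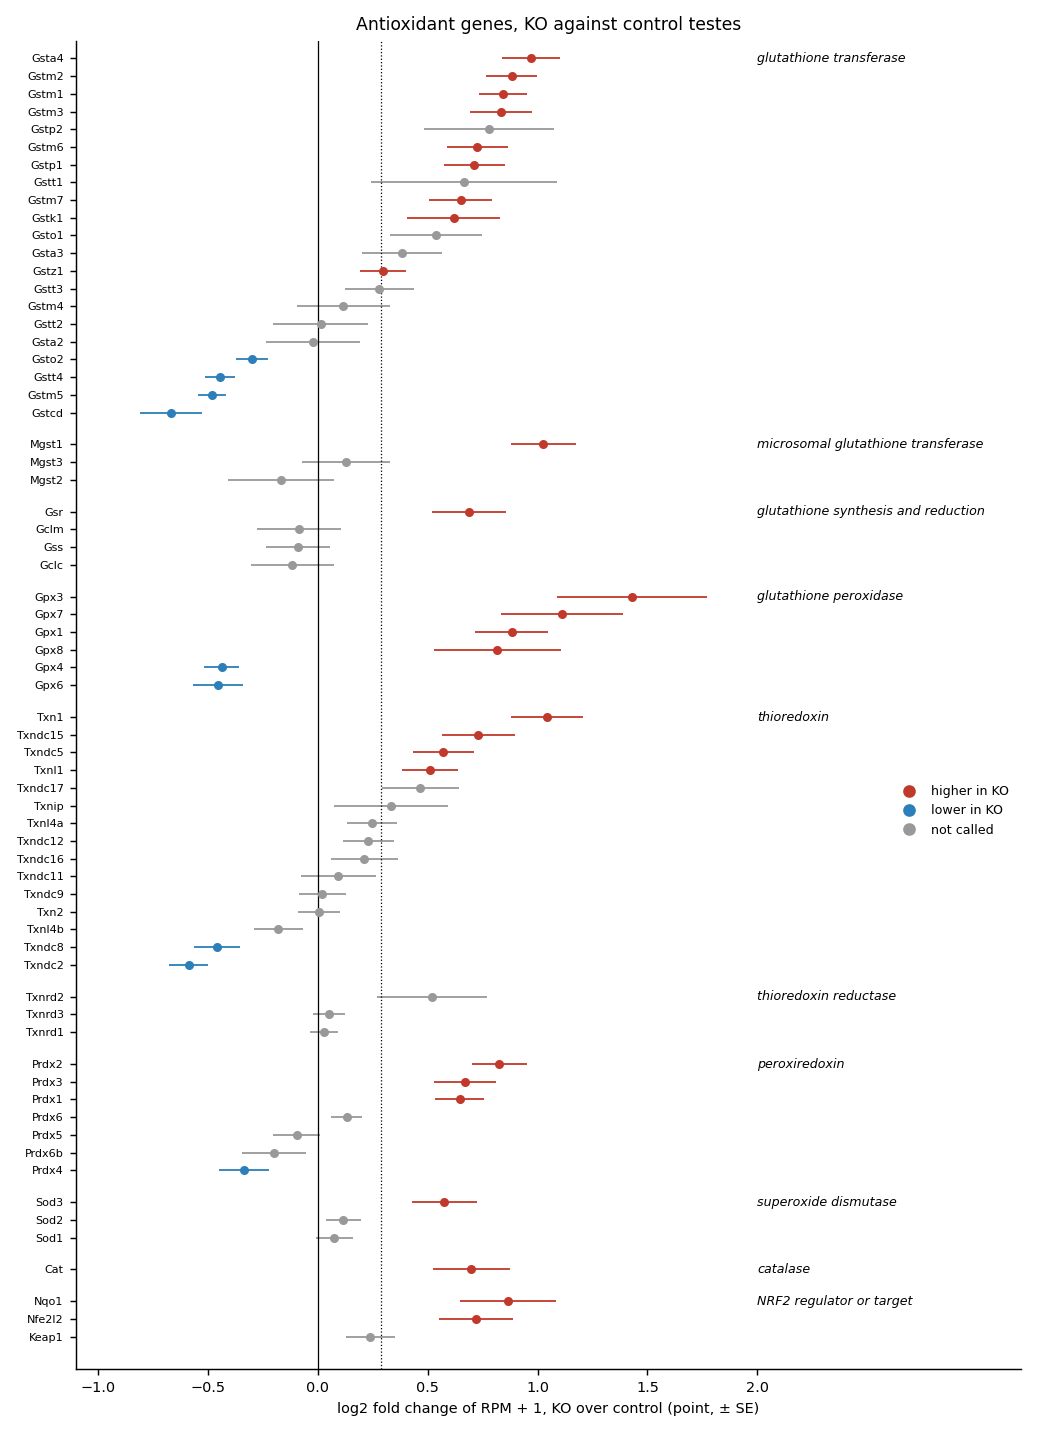
Log2 fold change of RPM + 1, KO (n = 6) over control (n = 7), for the 66 antioxidant genes tested, grouped by family; points are fitted values, bars are ± SE, and colour gives the call. The dotted line is the median of these genes (0.29). The 9 genes lower in KO lie between -0.67 and -0.30 and the 26 higher ones between 0.30 and 1.43.

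The most abundant of these genes fell in KO testes. Gstm5, a mu-class glutathione transferase known from testis and brain, had 1533, 1765 and 1884 RPM as its lowest, median and highest KO value, against 2188, 2366 and 2690 RPM in the controls. Every KO library lay below every control library. The log2 fold change was -0.48 (SE 0.0657, limma adjusted p = 2.89e-05). Per kilobase of transcript it also led all 69 genes, with a mean of 1851 RPM per kb in KO and 2586 RPM per kb in the controls. Gstm5 lies on chromosome 3 (107895821 to 107898686, plus strand, mm10) and overlaps 4933431E20Rik on the minus strand, and 14.4% of the 50-base stretches of its transcript also occur in that gene. The library protocol does not mark strand. 4933431E20Rik was lower too, at 239 to 283 RPM in KO and 299.9 to 379.9 RPM in the controls (log2 -0.43, limma adjusted p = 0.000271).

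The other 6 Gstm genes are neighbours of Gstm5 on chromosome 3, on the opposite strand, and 5 of them rose. Gstm1, the form known from liver and many other tissues, had 761, 808 and 1014 RPM (lowest, median, highest) in KO and 374, 486 and 663 RPM in the controls. Gstm2 had 441, 525 and 585 RPM in KO and 209.9, 276 and 386 RPM in the controls. For both genes the groups did not overlap, and the log2 fold changes were 0.84 (SE 0.108, limma adjusted p = 1.65e-05) for Gstm1 and 0.88 (SE 0.116, limma adjusted p = 1.98e-05) for Gstm2. Gstm3 (0.83) and Gstm6 (0.72) likewise had every KO library above every control library, while for Gstm7 (0.65) the groups overlapped. Gstm4, the least abundant, was not called, with 9.11 to 18.7 RPM in KO and 8.58 to 16.5 RPM in the controls. Gstm1 and Gstm3 share 23.1% and 28.8% of their 50-base stretches with other genes of the family or with pseudogenes, and Gstm3 overlaps Gstm6, so part of the reads may be split between them.

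**Figure D2:**
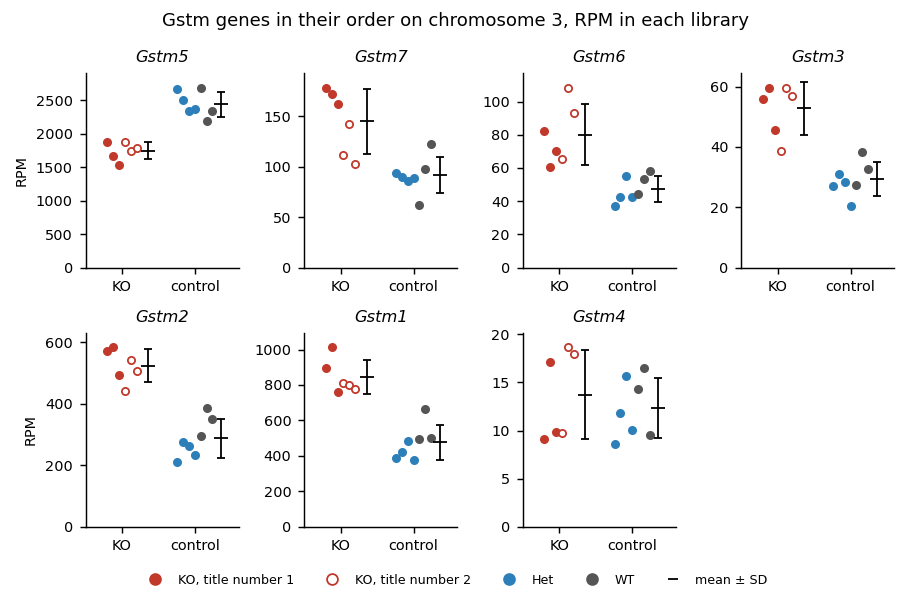
RPM in each library for the 7 Gstm genes, in their order along chromosome 3; KO is left and control right in each panel, filled and open red points are KO libraries of title number 1 and 2, blue points are Het, grey points are WT, and black marks are mean ± SD. Gstm5 is lower in KO, the 5 genes Gstm7, Gstm6, Gstm3, Gstm2 and Gstm1 are higher, and Gstm4 is not called.

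The promoters of Gstm5 and Gstm1 are shown because these neighbours, the most abundant of the cluster, moved in opposite directions. The sequences are RefSeq's for the GRCm38.p6 assembly (the build of mm10), 250 bases before to 50 after the annotated start, 5′ to 3′ on the gene's strand. Capitals mark the core of the antioxidant response element (TGACNNNGC, the site bound by NRF2) in Gstm5 (chr3:107895604-107895903, plus strand) and the TATA box (TATAAA) in Gstm1 (chr3:108017769-108018068, minus strand). Gstm5 also holds these TATA box letters, but after its annotated start, left in lower case; the other listed Gstm1 promoter holds neither motif.
Gstm5: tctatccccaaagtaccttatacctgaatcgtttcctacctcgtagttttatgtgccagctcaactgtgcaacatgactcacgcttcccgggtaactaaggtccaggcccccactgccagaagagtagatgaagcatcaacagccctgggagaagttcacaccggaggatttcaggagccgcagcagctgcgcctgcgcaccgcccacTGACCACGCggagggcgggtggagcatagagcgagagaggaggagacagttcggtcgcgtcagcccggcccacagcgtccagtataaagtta
Gstm1: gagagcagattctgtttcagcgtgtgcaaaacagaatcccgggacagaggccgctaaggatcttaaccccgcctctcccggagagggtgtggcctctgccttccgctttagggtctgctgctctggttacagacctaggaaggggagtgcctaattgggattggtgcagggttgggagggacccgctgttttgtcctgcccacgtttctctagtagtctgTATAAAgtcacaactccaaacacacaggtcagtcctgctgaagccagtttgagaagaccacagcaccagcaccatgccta

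Such a core was found in 12 of the 79 promoters listed for 60 of the antioxidant genes (15.2%), against 12.4% of 32851 mouse promoters of the same length, both strands searched. The 12 genes were Gclm, Gsta3, Gstm5, Gstm7, Mgst1, Nfe2l2, Prdx1, Sod1, Txndc11, Txndc2, Txndc5 and Txnrd1, of which 5 were called higher, 2 lower and 5 not called. Of all 66 antioxidant genes tested, 39.4% were higher and 13.6% lower, against 18.4% and 6.18% of all genes. Whether the core goes with a call was not tested. The TATA box stood in 13.9% of the antioxidant promoters and 13.6% of all, and the GC box (GGGCGG) in 64.6% and 35.7%. These are letter matches, not sites.

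The summed level of the 21 transferase genes, which leaves out Gstcd, differed by less than the spread between libraries, at 4589 ± 252 RPM in KO and 4647 ± 189 RPM in the controls (SD, n = 6 and 7). That held for RPM only: divided by the median-of-ratios factors the sum was lower in KO, at 4338 ± 312 in KO and 4880 ± 169 in the controls. Its makeup, which scaling does not alter, shifted. Gstm5 held 38.1% ± 2.32 of it in KO and 52.6% ± 3.73 in the controls, with no overlap (34.7% to 41.5% in KO, 46.7% to 57.8% in the controls). Within the Gstm genes alone, the sum without Gstm5 was 1659 ± 165 RPM in KO and 945 ± 174 RPM in the controls, while the sum with it was 3408 ± 210.2 RPM and 3388 ± 153 RPM, KO before control. Under median-of-ratios scaling the sum with Gstm5 was 3222 ± 256 in KO and 3557 ± 143 in the controls.

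**Figure D3:**
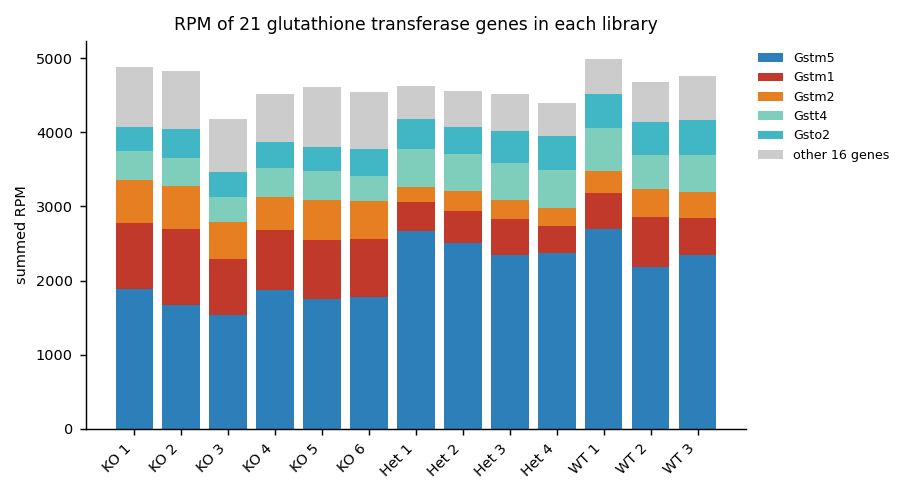
Summed RPM of the 21 glutathione transferase genes in each of the 13 libraries, KO on the left, with the 5 most abundant genes in colour and the other 16 in grey. Bars reach 4176 to 4875 RPM in KO and 4399 to 4985 RPM in the controls; the Gstm5 segment is shorter and the Gstm1 and Gstm2 segments are longer in KO.

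Among the other transferases, 3 fell with Gstm5 and 4 rose. Gstt4, of the theta class, had 335, 382 and 395 RPM in KO and 452, 502 and 578 RPM in the controls, with no overlap (log2 -0.45, SE 0.0691, limma adjusted p = 0.000107). Gsto2, an omega-class enzyme that reduces dehydroascorbate, had 329, 347 and 389 RPM in KO and 364, 449.7 and 474 RPM in the controls (log2 -0.30, SE 0.0741, limma adjusted p = 0.00545), and it lost its call with quantile normalization (adjusted p = 0.0781) and with Het alone as control (adjusted p = 0.0719). Gstcd, named for its transferase C-terminal domain, had 29.6, 34.7 and 51.8 RPM in KO and 49.6, 53.2 and 74.9 RPM in the controls (log2 -0.67, SE 0.140, limma adjusted p = 0.00152). The groups overlapped for both of these genes. Gstcd and Gsto2 overlap Ints12 and Wdr96 on the other strand, neither of which was called.

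Gsta4, which conjugates the aldehydes left by lipid peroxidation, rose to 102, 126 and 139 RPM in KO (lowest, median, highest), against 49.0, 57.0 and 87.6 RPM in the controls (log2 0.97, SE 0.131, limma adjusted p = 2.66e-05). The pi-class Gstp1 was at 46.1 to 71.7 RPM in KO and 27.1 to 47.2 RPM in the controls (log2 0.71). It shares 62.3% of its 50-base stretches with other genes, Gstp2 among them, so the split of reads between the pair is uncertain, and Gstp2 (log2 0.78, limma adjusted p = 0.0594) was not called. The mitochondrial and peroxisomal Gstk1 (0.62) and Gstz1 (0.30), which isomerises maleylacetoacetate in tyrosine breakdown, were called with adjusted p-values of 0.0374 and 0.0401, and each lost its call when any of 8 libraries was left out. Gsta2, Gsta3, Gstm4, Gsto1, Gstp2, Gstt1, Gstt2 and Gstt3 were not called, with log2 values from -0.02 to 0.78. Gsta1 was at 0.124 to 0.911 RPM in KO and 0.138 to 0.536 RPM in the controls and was not tested. Of the microsomal enzymes, Mgst1 rose to 67.8, 94.7 and 116 RPM in KO, against 32.4, 42.4 and 63.0 RPM in the controls, with no overlap (log2 1.03, SE 0.147, limma adjusted p = 4.91e-05). Mgst2 and Mgst3 were not called (-0.17 and 0.13).

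None of the 3 genes of glutathione synthesis passed the test, while Gsr, of glutathione reduction, rose. Gclc and Gclm, the subunits of the rate-limiting ligase, had log2 values of -0.12 and -0.09, and Gss, which adds glycine, -0.09, all uncalled. The approximate interval of 2 SE on either side was -0.50 to 0.26 for Gclc, -0.47 to 0.30 for Gclm and -0.38 to 0.20 for Gss. The Gclm value joins KO libraries that lay on either side of the control mean of 29.2 RPM. Its log2 was -0.52 in title number 1, called lower (limma adjusted p = 0.0417), and 0.34 in number 2 (limma adjusted p = 0.216). Gsr, which uses NADPH to reduce oxidised glutathione, reached 23.1, 28.3 and 40.4 RPM in KO, against 11.4, 18.4 and 25.6 RPM in the controls (log2 0.69, SE 0.169, limma adjusted p = 0.00543). The groups overlapped. In the list of NADPH supply genes, 10 of 13 tested were higher and 0 lower (background 18.4% and 6.18%), with a median log2 of 0.61. Of these, Idh1 had 193 to 326 RPM in KO and 102 to 152 RPM in the controls, and G6pdx, the entry enzyme of the pentose phosphate path, had 22.6 to 46.9 RPM in KO and 9.36 to 16.2 RPM in the controls. Taldo1 (1.04) and Tkt (0.90) of the same path were also higher, and 8 of the 10 calls were made under median-of-ratios scaling. The markers of Leydig cells (0.97 at the median), macrophages (1.09) and Sertoli cells (0.85) were also higher in KO. Those of elongating spermatids were lower (-1.12). The part of these cell types was not tested. In the list of glutathione supply and turnover, 3 of 23 genes were higher (Slc3a2, Abcc1 and Slc1a4), 1 was lower (Slc25a39) and the median was 0.13.

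Of the 6 glutathione peroxidases tested, 2 fell and 4 rose. Gpx4, which reduces lipid hydroperoxides in membranes and becomes a structural protein of the sperm midpiece, had 391, 466 and 514 RPM in KO and 523, 612 and 709 RPM in the controls. All KO libraries lay below all controls (log2 -0.44, SE 0.08, limma adjusted p = 0.000492). Gpx6, known from olfactory tissue, had 30.6, 31.4 and 38.8 RPM in KO and 36.9, 47.4 and 52.9 RPM in the controls (log2 -0.46, SE 0.114, limma adjusted p = 0.00596), with overlapping groups. The other 4 tested genes rose. Gpx1, the broadly expressed cytosolic enzyme, had 80.0, 89.5 and 106 RPM in KO and 31.9, 54.6 and 78.6 RPM in the controls, with no overlap (log2 0.88, SE 0.166, limma adjusted p = 0.000634). Gpx3, a secreted form, had 6.31, 15.0 and 25.6 RPM in KO and 1.51, 5.75 and 8.40 RPM in the controls (log2 1.43, SE 0.342, limma adjusted p = 0.00437). It had the largest log2 fold change of the 66 genes in this fit, and its groups overlapped; with limma-voom Gpx7 stood above it (1.66 for Gpx7 and 1.57 for Gpx3), as it did with title number as a term (1.19 and 1.10). The endoplasmic reticulum forms Gpx7 (1.11) and Gpx8 (0.82) lay under 10 RPM in every library, and Gpx8 lost its call (adjusted p = 0.0428) when any of 10 libraries was left out and with limma-voom on the recovered reads (adjusted p = 0.0776). Gpx2 and the epididymal Gpx5 had no reads in KO and at most 0.168 and 0.42 RPM in the controls. The 5 epididymal markers, Gpx5 among them, summed to at most 0.443 RPM in KO and 1.01 RPM in the controls.

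Gpx4 held 75.5% ± 2.71 of the summed peroxidase level in KO and 85.4% ± 2.68 in the controls (SD, n = 6 and 7), and that sum was 608 ± 56.8 RPM in KO and 728 ± 65.4 RPM in the controls. Of the 50-base stretches of the Gpx4 transcript 68.9% also occur in pseudogene copies, which are not rows of the table. The handling of reads with several matches is not given. The windows around the catalytic codon are shown because the genes shown that fell and rose do not divide by it. Gpx8, which also rose, is not shown. Capitals mark TGA, read as selenocysteine, in Gpx4, Gpx1 and Gpx3, and the cysteine codon TGT in Gpx6 and Gpx7. The TGT was placed by the best match of the bases around it, to Gpx3 for Gpx6 (16 of 24 bases) and to Gpx4 for Gpx7 (14 of 24). Windows are from the coding sequence of the longest principal transcript in GENCODE release 21 for mouse.
Gpx4: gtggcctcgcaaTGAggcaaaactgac
Gpx6: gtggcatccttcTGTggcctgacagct
Gpx1: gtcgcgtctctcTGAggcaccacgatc
Gpx3: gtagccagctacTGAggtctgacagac
Gpx7: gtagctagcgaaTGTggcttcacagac

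Thioredoxin itself and the spermatid thioredoxins moved in opposite directions. Txn1, the cytosolic thioredoxin, rose to 24.1, 28.8 and 42.1 RPM in KO, against 10.6, 13.1 and 18.3 RPM in the controls, with no overlap (log2 1.04, SE 0.165, limma adjusted p = 0.000132). Txndc2, a thioredoxin of spermatids and the sperm tail, had 305, 388 and 447 RPM in KO and 491, 566 and 648 RPM in the controls (log2 -0.59, SE 0.0876, limma adjusted p = 7.27e-05). Txndc8, another spermatid form, had 67.4, 72.1 and 88.1 RPM in KO and 88.4, 94.5 and 129.7 RPM in the controls (log2 -0.46, SE 0.105, limma adjusted p = 0.00317). For both spermatid genes the groups did not overlap. The elongating spermatid markers fell with them, by 1.12 at the median on the log2 scale, and their part was not tested. Txn2, the mitochondrial form, had 65.3, 73.2 and 89.4 RPM in KO and 67.2, 73.6 and 85.4 RPM in the controls, and was not called (log2 0.00). The interval of 2 SE on either side was -0.19 to 0.20.

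These 4 genes share the active-site run of codons in capitals, the same in letters for Txn2, Txndc2 and Txndc8, and differ around it; among the 69 genes no other principal transcript held it. The windows are from the same transcripts as above and show that the genes that fell and rose carry the same catalytic stretch.
Txn1: gctacgTGGTGTGGACCTTGCaaaatg
Txndc2: gccgctTGGTGTGGCCCCTGCagaatg
Txndc8: gcaaagTGGTGTGGCCCCTGCaaaaca
Txn2: gcacagTGGTGTGGCCCCTGCaagatc

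Of the other thioredoxin-type genes, 3 rose and 8 were not called. Txndc15 (log2 0.73), Txndc5 (0.57), a disulphide isomerase of the endoplasmic reticulum, and Txnl1 (0.51), which associates with the proteasome, were higher, all with overlapping groups. Txnip, which inhibits thioredoxin, ranged from 73.8 to 189.9 RPM in KO and 43.5 to 192 RPM in the controls and was not called (0.33). The thioredoxin reductases, which recharge thioredoxin with NADPH, showed no call. Txnrd3, the thioredoxin and glutathione reductase of spermatids, had 597, 656 and 798 RPM in KO and 556, 675 and 695 RPM in the controls, and its log2 value of 0.05 (2 SE interval -0.10 to 0.20) was -0.10 under median-of-ratios scaling and 0.21 under quantile normalization, where it was called (limma adjusted p = 0.029). Txnrd1, the cytosolic enzyme, had 431, 448 and 478 RPM in KO and 399, 447 and 481 RPM in the controls (log2 0.03, 2 SE interval -0.10 to 0.16). Txnrd2, the mitochondrial enzyme, was at 8.38 to 14.8 RPM in KO and 3.71 to 13 RPM in the controls (log2 0.52, limma adjusted p = 0.136). All 3 carry the selenocysteine codon at their end, with a glycine codon between it and the stop codon. The windows show the selenocysteine codon in capitals because Gpx4, Gpx1 and Gpx3 use it too.
Txnrd1: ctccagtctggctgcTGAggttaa
Txnrd2: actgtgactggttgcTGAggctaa
Txnrd3: actcagaaaggctgcTGAggctag

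**Figure D4:**
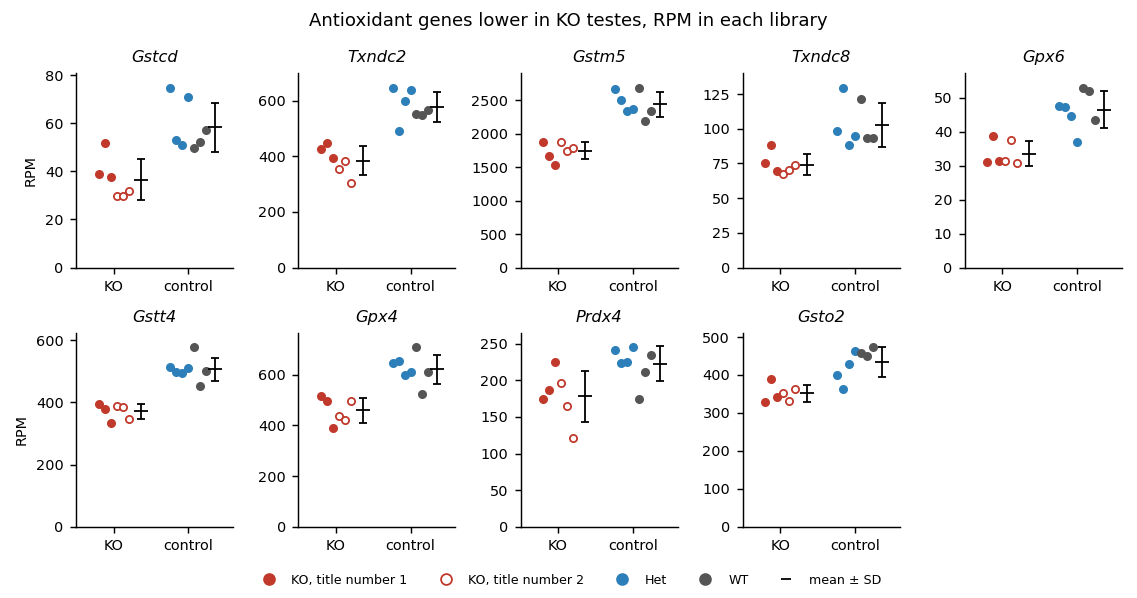
RPM in each library for the 9 antioxidant genes called lower in KO; KO is left and control right in each panel, filled and open red points are KO libraries of title number 1 and 2, blue points are Het, grey points are WT, and black marks are mean ± SD. For Txndc2, Gstm5, Txndc8, Gstt4 and Gpx4 no KO point reaches the lowest control point; for the other 4 genes the groups overlap.

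Peroxiredoxins reduce peroxides with a reactive cysteine, and 3 of 7 rose. Prdx2 had 102, 122 and 174 RPM in KO and 60.5, 66.1 and 92.0 RPM in the controls (log2 0.82, SE 0.125, limma adjusted p = 8.94e-05). Prdx1 had 78.2, 97.5 and 112 RPM in KO and 49.0, 62.1 and 68.8 RPM in the controls (log2 0.65, SE 0.111, limma adjusted p = 0.000297). The groups did not overlap for these cytosolic forms. Prdx2 overlaps Rnaseh2a on the other strand, which was called lower (-0.37). The mitochondrial Prdx3 was also higher (0.67, limma adjusted p = 0.00169). Prdx4, the form of the endoplasmic reticulum, had 121, 181 and 225 RPM in KO and 175, 225 and 246 RPM in the controls (log2 -0.34, SE 0.114, limma adjusted p = 0.0362), with 5 of 6 KO libraries below the control mean, and it lost its call when any of 8 libraries was left out. Prdx5 (-0.10), Prdx6 (0.13) and Prdx6b (-0.20) were not called. For Prdx6b the log2 was -0.54 in title number 1, called lower (limma adjusted p = 0.00412), and 0.14 in number 2 (limma adjusted p = 0.493). Its controls had 288 to 460 RPM.

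Superoxide dismutases convert superoxide to hydrogen peroxide. Sod1, the cytosolic enzyme, had 212, 223 and 269.7 RPM in KO and 200.3, 219.5 and 254 RPM in the controls, and Sod2, the mitochondrial one, had 165, 191 and 224 RPM in KO and 162, 178 and 196 RPM in the controls. Neither was called (log2 0.07 and 0.11, both below 0 under median-of-ratios scaling, at -0.08 and -0.04). The extracellular Sod3 was higher, with 48.6, 61.0 and 75.3 RPM in KO and 25.9, 41.2 and 53.8 RPM in the controls (log2 0.58, SE 0.147, limma adjusted p = 0.00695). Cat, the peroxisomal catalase, was at 24, 29.9 and 43.7 RPM in KO and 12.5, 18.6 and 25.5 RPM in the controls (log2 0.70, SE 0.175, limma adjusted p = 0.00625). Both had overlapping groups.

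NRF2, the product of Nfe2l2, is a transcription factor of many antioxidant genes, and the product of Keap1 keeps it low. Nfe2l2 rose to 25.1, 34.0 and 53.1 RPM in KO, against 15.7, 22.1 and 27.3 RPM in the controls (log2 0.72, SE 0.168, limma adjusted p = 0.00363). Nqo1, a quinone reductase and a standard NRF2 target, rose to 6.05, 9.13 and 15.0 RPM in KO, against 3.44, 4.38 and 6.17 RPM in the controls (log2 0.87, SE 0.219, limma adjusted p = 0.00654). For both the groups overlapped. Neither was called with WT alone as control (limma adjusted p = 0.0916 for Nfe2l2 and 0.0953 for Nqo1) or within title number 2 (0.118 and 0.072). Nqo1 also lost its call with quantile normalization (limma adjusted p = 0.0607). Keap1 was not called, with 77.6 to 86.2 RPM in KO and 52.6 to 85.5 RPM in the controls (log2 0.24, limma adjusted p = 0.129). A list of NRF2 pathway genes outside the 69 had 14 of 26 tested genes higher and 3 lower, with a median log2 of 0.63 (background 18.4% and 6.18%). Of the 14, G6pdx, Me1, Pgd, Taldo1 and Tkt are also in the NADPH supply list above, and without these 5 the count was 9 of 21 higher and 3 lower. Ephx1, a microsomal epoxide hydrolase, led the higher ones by adjusted p, with 356 to 519.8 RPM in KO and 134 to 269 RPM in the controls. Nqo2, the paralog of Nqo1, was lower, with 32.8 to 62.8 RPM in KO and 70.2 to 98.7 RPM in the controls (log2 -0.92, SE 0.139, limma adjusted p = 8.59e-05). The other genes called lower were Osgin1 and Hmox2.

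Among glutaredoxins and repair enzymes, 3 of 14 tested genes were higher and 3 lower. Sesn2 (0.85), Sesn1 (0.76) and Glrx (0.83) were higher. Glrx2, a glutaredoxin, was lower, with 43.2 to 71.1 RPM in KO and 78.3 to 105 RPM in the controls, and so were Nme8 (-0.40) and Srxn1 (-0.55), which restores over-oxidised peroxiredoxins. Other glutathione-dependent enzymes had 5 of 17 higher, led by Adh5 (0.99), and 2 lower. The selenoprotein synthesis genes had 3 of 13 higher and 1 lower, the metallothionein and metal carrier list 2 of 7 higher and 0 lower, and the NADPH oxidase list 2 of 9 higher and 1 lower. The background is again 18.4% higher and 6.18% lower.

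Per kilobase of transcript the order of mean levels in the controls was Gstm5 (2586 RPM per kb), Gpx4 (648), Gstt4 (525), Gstm1 (369), Sod1 (348), Gsto2 (321), Txndc2 (310.3), Gstm2 (271), Txnrd3 (228) and Prdx4 (225). In KO these genes stood at 1851 for Gstm5, 479 for Gpx4, 385 for Gstt4, 655 for Gstm1, 367 for Sod1, 260.2 for Gsto2, 207 for Txndc2, 492 for Gstm2, 237 for Txnrd3 and 180.0 for Prdx4, in RPM per kb. Of these 10 genes 6 were called lower, 2 higher (Gstm1 and Gstm2) and 2 not called. Over all genes tested 6.18% were lower and 18.4% higher. The 10 genes were picked by their control level, a choice that favours genes lower in KO, so the count is no result about abundant genes. Gpx4 was second in the controls, and Gstm1 and Gstm2 both stood above it in KO.

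Het and WT testes showed no called antioxidant gene, and no called gene among all tested (background 0%). With limma 957 genes (5.89%) had an unadjusted p under 0.05, and so had 5 antioxidant genes (7.58%). Limma-voom called 0 as well. The lowest limma adjusted p of an antioxidant gene was 0.557, for Gstm2, with 294 to 386 RPM in WT and 209.9 to 276 RPM in Het. The size of a KO change can thus depend on the control. The KO log2 of Gstm2 was 0.61 with WT alone as control and 1.09 with Het alone, and that of Gstk1 was 0.17 and 0.95. Log2 values of Het over WT ran from -0.79 (Gstk1) to 0.35 (Txndc16), and 15 of the 66 were above 0. Their median was -0.16, and that of all genes was -0.04.

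The KO libraries of each title number were also set against the same 7 controls, so these comparisons share their control samples. Among these controls only Het replicate 1 has title number 1. Genotype and title number therefore cannot be told apart in the number 1 comparison. In number 1, 26 antioxidant genes were higher and 10 lower, against 17% and 5.74% of all genes tested. In number 2, 13 were higher and 9 lower, against 7.8% and 4.64%. Over the 26 genes called higher in all KO, the median log2 fold change was 0.93 in number 1 and 0.60 in number 2. Over the 9 called lower it was -0.44 in number 1 and -0.47 in number 2. Both sets were chosen by a test on these same KO libraries. Over all 66 antioxidant genes tested the median was 0.27 in number 1 and 0.29 in number 2, and over all genes 0.15 and 0.17. Catalase, for example, had 43.7, 33.9 and 40.6 RPM in the number 1 libraries and 25, 25.8 and 24 RPM in those of number 2, against a control mean of 19.3 RPM. Its log2 value was 1.01 in number 1 (limma adjusted p = 0.000623) and 0.38 in number 2 (limma adjusted p = 0.185). Gstm5 differed little, with -0.53 in number 1 and -0.44 in number 2. The number 1 count of lower genes was 5 without KO replicate 1 or without KO replicate 3, and the number 2 count of higher genes was 6 without KO replicate 5.

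A direct test of number 2 against number 1 called none of the 66 genes, against 0.0801% of all genes called higher and 0.0986% lower. At an unadjusted p under 0.05 it had 17 antioxidant genes (25.8%), against 12.3% of all genes tested. Nearest to a call were Prdx6b, Gstt1 and Gclm. Gstt1, of the theta class, had 5.98, 3.04 and 0.344 RPM in the number 2 libraries and 12.2, 9.20 and 16.2 RPM in those of number 1, with 1.85 to 4.42 RPM in the controls (log2 of number 2 over number 1 -1.98, SE 0.451, limma adjusted p = 0.0711). Prdx6b had 315, 400.2 and 421 RPM in number 2 and 245, 219 and 237 RPM in number 1 (log2 0.69, limma adjusted p = 0.0565), and Gclm had 46.8, 36.6 and 29.5 RPM in number 2 and 15.4, 21 and 24.4 RPM in number 1 (log2 0.86, limma adjusted p = 0.0882). For all 3 genes the 2 sets of KO libraries did not overlap, but the genes were picked by this same test, so this adds no support. Without KO replicate 4, Prdx6b and Gstt1 were called.

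**Figure D5:**
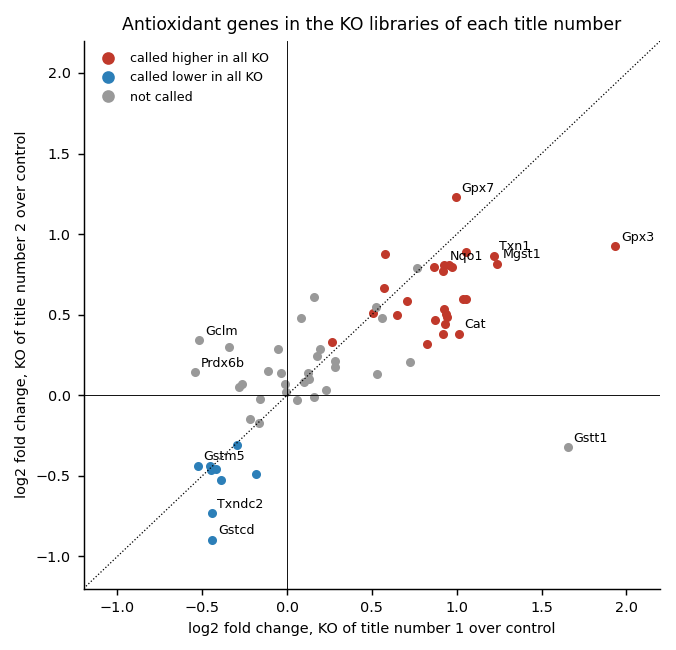
Log2 fold change of RPM + 1 over the same 7 controls for each of the 66 antioxidant genes tested, in KO libraries of title number 1 (x axis, n = 3) and number 2 (y axis, n = 3); colour gives the call over all 6 KO libraries and the dotted line marks equal values. Both axes share the control samples; Gpx3 lies at 1.93 and 0.92, Gstt1 at 1.65 and -0.32, and Gstcd at -0.44 and -0.90, number 1 before number 2.

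Within the libraries of title number 2 alone (3 KO, 3 Het and 3 WT), 12 antioxidant genes were higher and 8 lower, against 5.36% and 3.97% of all genes tested. The calls not made there were those of Cat, Gpx3, Gpx6, Gpx8, Gsr, Gstk1, Gstm7, Gstp1, Gstz1, Nfe2l2, Nqo1, Prdx3, Sod3, Txndc15 and Txndc5, all with the same direction as in the full set. Title number 1 has a single control library (Het replicate 1), so no value within it could be had. With the 3 WT mice alone as control, 10 antioxidant genes were higher and 7 lower, against 833 and 478 of the 16235 genes tested. The genes called in the full set and in both of these smaller ones were Gstm5, Gpx4, Gstt4, Gsto2, Txndc2 and Txndc8, which were lower, and Gstm1, Gstm2, Gstm3, Gstm6, Gsta4, Mgst1, Gpx1, Txn1, Prdx1 and Prdx2, which were higher.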

How the data were processed

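The table that the authors deposited holds log2 RPM, with 25965 genes as rows and 13 libraries as columns. Per the labels' protocols, about 2 ng of total testis RNA went into each Smart-seq2 library with 11 PCR cycles. FastQC 0.11.8, Trim Galore 0.6.6 and the build mm10 come from the submitters' processing notes; aligner, counter and strand setting are not given in sources used here.

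From the deposited log2 values RPM and whole reads were computed. In each library the lowest value equals 0.9 read and was set to 0, and at least 99.96% of the other values were whole reads (within 0.01). limma 3.58.1 in R 4.3.3 was fitted with a mean-variance trend to log2(RPM + 1) over the 16235 genes whose mean reached 1 RPM, two-sided, with Benjamini-Hochberg adjustment and 0.05 as the threshold. Fold changes on this scale understate those of low genes. KO was compared with Het and WT together, and Het with WT and the title numbers in fits of 3 groups. Wfdc15a was also tested by exact permutation.

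The members and gene lists were chosen with earlier results of these data known. Named were all called members, the 10 most abundant, germ cell forms and the Gsta and Gstm families, and of each list up to 4 called genes of lowest adjusted p; the other list genes named were chosen after their values were seen. Alternatives were other scalings, filters, pseudocounts and controls, limma-voom, a replicate block and leaving out each library. The design text counts mice, so each library was taken as 1 mouse; litters and batches are not given. Same-numbered libraries did not deviate together (correlations -0.083 to 0.126), so replicate numbers were not used as pairs. All 69 genes had a transcript length in GENCODE release 21 for mouse, 39 with the same ends as in the table, and 20 overlap another listed gene.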

Additional observations from a re-analysis of the deposited data

Results flagged for a closer look

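Of 237 groups tested (the 4 Het, 6 KO or 7 control libraries of a gene), 14 held a library that lay far from the others. This was measured as its gap to the nearest library over the group's range on the log2(RPM + 1) scale. Chance gives about 1 group in 20, and the Het libraries are also among the controls, so the groups are not separate. Nfe2l2 was lowest in Het replicate 3 among the Het libraries, with 15.7 RPM and a nearest value of 21.8 RPM (share 0.890). Txnip was highest in KO replicate 3 among the KO libraries, with 189.9 RPM and a nearest value of 104 RPM (share 0.635). Gpx7 was lowest in KO replicate 1 among the KO libraries, with 2.1 RPM and a nearest value of 4.09 RPM (share 0.712). Sod3 was lowest in Het replicate 1 among the control libraries, with 25.9 RPM and a nearest value of 39.4 RPM (share 0.572). Txnrd3 was lowest in Het replicate 2 among the Het libraries, with 556 RPM and a nearest value of 675 RPM (share 0.925). Prdx2 was lowest in Het replicate 4 among the Het libraries, with 60.5 RPM and a nearest value of 65.2 RPM (share 0.841). Gpx1 was highest in Het replicate 2 among the Het libraries, with 78.6 RPM and a nearest value of 37.1 RPM (share 0.836). Txndc17 was lowest in KO replicate 6 among the KO libraries, with 14.1 RPM and a nearest value of 22.3 RPM (share 0.628). Gpx8 was lowest in Het replicate 3 among the control libraries, with 0.688 RPM and a nearest value of 2.07 RPM (share 0.655). Txnl1 was highest in Het replicate 3 among the Het libraries, with 41.6 RPM and a nearest value of 32.5 RPM (share 0.919). Slc25a39 was highest in WT replicate 1 among the control libraries, with 1496 RPM and a nearest value of 1252 RPM (share 0.836). Cp was lowest in Het replicate 4 among the control libraries, with 1.69 RPM and a nearest value of 7.08 RPM (share 0.707). Adh5 was lowest in Het replicate 4 among the Het libraries, with 41.8 RPM and a nearest value of 55.9 RPM (share 0.884). Clic1 was highest in Het replicate 2 among the Het libraries, with 30.2 RPM and a nearest value of 22.6 RPM (share 0.868). The causes were not tested. Of these genes, Gpx8 lost its KO against control call without Het replicate 3, while Nfe2l2, Gpx7, Sod3, Prdx2, Gpx1 and Txnl1 had no call that any single library removed.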

How the results depend on the processing

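Each result was recomputed under the alternatives, 1 at a time. The KO against control counts of antioxidant genes stayed within 1.5 times of 26 higher and 9 lower, except with title number 2 only (12 higher) and WT only as control (10 higher). Over all genes, 1711 were higher and 1716 lower under median-of-ratios scaling, 1460 and 1532 under quantile normalization, 870 and 645 with title number 2 only, and 833 and 478 with WT only. Leaving out 1 library gave 23 to 28 antioxidant genes higher and 8 to 9 lower, and 2378 to 3002 and 884 to 1015 over all genes. It gave 21 to 27 higher and 5 to 9 lower for number 1 (5 without KO replicate 1 or KO replicate 3), 6 to 16 higher and 6 to 8 lower for number 2 (6 higher without KO replicate 5), and 0 to 1 in each direction for number 2 against number 1 (1 without KO replicate 4). Quantile normalization called 1 gene higher there, Gclm. The Wfdc15a difference was -0.6616 over all libraries (exact permutation p = 0.0338), -0.1477 with title number 2 only (p = 0.5), -0.6528 with WT only (p = 0.179), -0.6682 with Het only (p = 0.11) and -0.8593 to -0.4568 with 1 library left out; the threshold was missed in those 3 smaller sets and without WT replicate 1, Het replicate 2, Het replicate 4, or KO replicate 1, 2 or 3 (p = 0.0541 to 0.0821). With the replicate number as a block, which did not pair the libraries, 26 antioxidant genes were higher and 9 lower (2845 and 985 over all genes), Prdx6b, Gstt1 and Txndc17 gained a call, and Gstk1, Gstz1 and Prdx4 lost theirs.

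Signs turned only for uncalled genes, and the values below are not a full list. Under median-of-ratios scaling Prdx6 was at -0.0225, Gstm4 at -0.0253, Txnrd3 at -0.1018, Txnrd1 at -0.1252, Sod1 at -0.0776 and Sod2 at -0.0378. The same scaling gave -0.1468 for Txn2, -0.0086 for Mgst3, -0.1344 for Gstt2, -0.1302 for Txndc9 and -0.0531 for Txndc11. Quantile normalization gave -0.1751 for Gstm4, -0.1028 for Txn2 and -0.1673 for Mgst3. The block gave -0.0821 for Gstm4 and -0.0255 for Txnrd3. Title number as a term gave 0.1286 for Gclm, 0.0225 for Gclc and 0.1225 for Gsta2. Title number 2 only gave 0.1023 for Prdx6b, 0.0074 for Gss, 0.3198 for Gclm, 0.3038 for Gsta2, -0.2615 for Gstt1 and -0.0115 for Sod1, and Het only gave 0.0865 for Gsta2. Leaving out 1 library gave -0.2394 to 0.0687 for Gclm and -0.1606 to 0.1203 for Gsta2. The causes were not tested. Depth limits Gpx7, Gpx8, Gstp2, Gstt1 and Gpx3, which had 2 to 10 reads in their lowest library.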
